A study of Homo sapiens with 6 samples.

Results

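Ribosome biogenesis factors are the nucleolar proteins that transcribe, modify, cut and fold ribosomal RNA and load it with ribosomal proteins before it leaves the nucleus. The 56 genes described here were taken from a list of gene names drawn up with earlier results of these data known, with no threshold on their values, and all 56 are among the 16834 genes of the deposited table. They encode RNA polymerase I subunits and initiation factors, core proteins of the small nucleolar ribonucleoproteins, abundant nucleolar scaffold proteins, the SSU processome, late 40S factors and 60S assembly factors. In human cells the pathway is known to run through interphase and to stop in mitosis, when RNA polymerase I is silenced and the nucleolus comes apart.

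The cells were HEK293-T Flp-In, a human embryonic kidney line with a single recombination site, kept in asynchronous growth and stably expressing ccTaggedRP, and 3 Flag-IPs and 3 HA-IPs were sequenced. The construct is a bicistronic cassette under the CAG promoter that makes mouse RPL10a, a protein of the large ribosomal subunit, in 2 epitope-tagged forms. The Flag-IPs pulled down Flag-RPL10a-hCdt, whose Cdt1 fragment is predicted to restrict it to G1 and S, and the HA-IPs pulled down HA-RPL10a-hGem, whose Geminin fragment is predicted to restrict it to S, G2 and M. Both groups therefore carry both tagged proteins, no drug or synchronization separates them, and the groups differ, as far as the labels say, in the antibody used on the lysate. Poly(A) RNA was sequenced as paired 150 bp reads. The labels do not say whether the 3 replicates of a group came from separate cultures, so the p-values measure the spread between these libraries, which may be technical. In bulk IPs, fewer cells in a phase and less of an mRNA per cell cannot be told apart.

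The libraries held 23174532 to 44134833 reads on the listed genes, and the 56 genes took 1.29% to 1.39% of the normalized counts of each library. The epithelial markers KRT8, KRT18 and EPCAM were present in all 6 libraries, while UMOD, NPHS1, AQP2 and SLC12A3, markers of the mature nephron, were not among the listed genes. Other nephron markers were listed. LRP2 had means of 3708 normalized counts in the Flag-IPs and 4521 in the HA-IPs. In the same order SLC34A1 had 93.5 and 4.29, SLC12A1 50.3 and 2.49, CUBN 31.5 and 34.1, and AQP1 20.8 and 8.50. Of 13 epithelial markers limma called 2 higher in the HA-IPs with 1 higher in the Flag-IPs, of 5 listed nephron markers 1 and 2, and of 9 listed fibroblast and endothelial markers 0 and 7. Of 34 heart muscle markers, 26 were listed, and all 26 were higher in the Flag-IPs in limma. Their summed normalized counts were 218684, 159382 and 104656 in the Flag-IPs (replicates 1, 2 and 3 in turn) against 4291, 2870 and 21465 in the HA-IPs, which is 0.339% to 0.727% of a Flag-IP library and 0.00911% to 0.0677% of an HA-IP library. CSRP3, a muscle protein, was at 0 in HA-IP replicates 1 and 2. The part of these transcripts in the results for the 56 genes was not tested.

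Of the 56 genes, 13 were higher in the HA-IPs while 1 was higher in the Flag-IPs at a limma adjusted p of at most 0.05. The share higher in the HA-IPs was 23.2%, against 5.79% of all 16834 genes and 10.2% of the 9185 protein-coding genes with a mean at least as high as that of the lowest of the 56. In the other direction the background was 7.1% of all genes and 7% of those 9185. A fold change here is the difference of mean log2(normalized counts + 1), HA-IPs minus Flag-IPs, where a normalized count is a read count divided by the size factor of its library. The fold changes were small, with a median of 0.087 over the 56 genes, -0.0049 over all genes and 0.029 over the comparable protein-coding genes. They ranged from -0.55 for NOP10, a core protein of the box H/ACA particles, to 0.30 for UTP20, a large scaffold protein of the SSU processome, and 43 of the 56 were positive, against 31 with the same total per library and 33 with quantile normalization. The 3 HA-IPs lay above the 3 Flag-IPs without overlap for 24 of the 56, where 16.1% of all genes did so, and below them for 4, where 16.1% of all genes did so too. Among the 9185 comparable protein-coding genes, 5277 had a positive fold change. The HA-IPs lay higher without overlap for 2319 of these and the Flag-IPs for 1414. The 13 genes called were spread over 4 of the 7 roles, and none of the 10 snoRNP or scaffold genes was higher in the HA-IPs at this threshold.

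**Figure D1:**
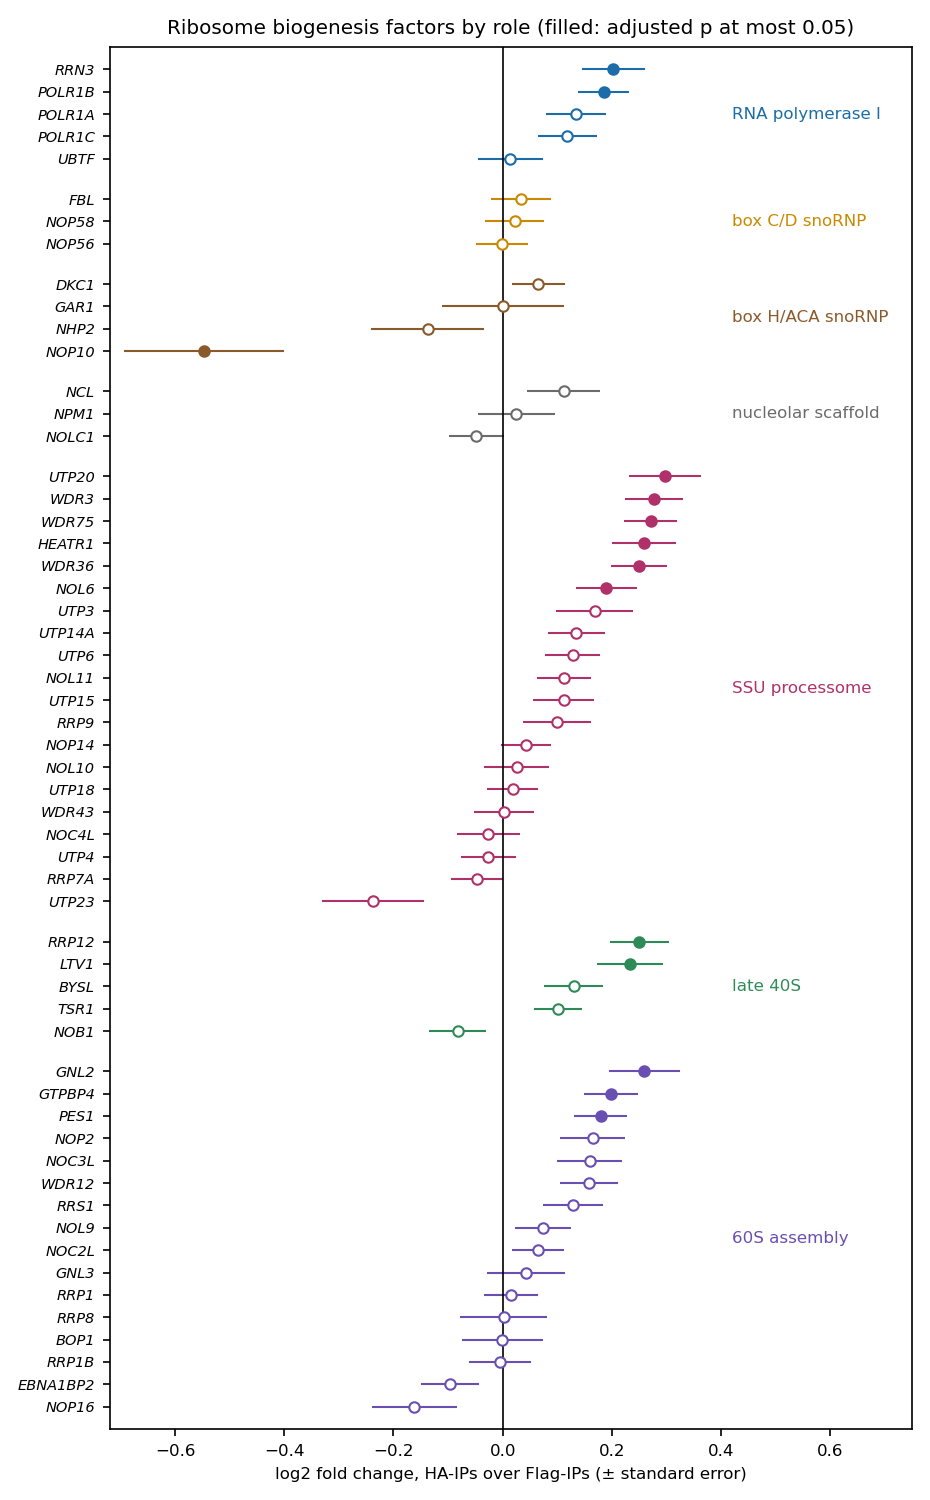
Log2 fold change (HA-IPs minus Flag-IPs) for each of the 56 ribosome biogenesis factors, grouped by role, with bars of ± 1 standard error from limma (3 libraries per group) and filled points where the adjusted p was at most 0.05. The 13 filled points right of 0 lie in RNA polymerase I, the SSU processome, late 40S and 60S assembly, and the filled point left of 0 is NOP10 at -0.55.

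These calls, like those over all genes, depended on single libraries. Without Flag-IP replicate 2 only WDR75 of the 13 passed the threshold. Without HA-IP replicate 1 the 4 that passed were WDR3, WDR75, LTV1 and GNL2, without HA-IP replicate 2 the 3 were WDR3, WDR36 and WDR75, and without HA-IP replicate 3 the 5 were UTP20, WDR3, WDR36, WDR75 and RRP12. Without Flag-IP replicate 1 all but NOL6 passed, and without Flag-IP replicate 3 all 13 passed together with POLR1A, NOL11 and NOP2. WDR75 thus passed in all 6 of these fits and WDR3 in 5. Of all 16834 genes, 5.79% were higher in the HA-IPs as reported and 0.612% without Flag-IP replicate 2. Without HA-IP replicates 1, 2 and 3 in turn the share was 1.34%, 1.59% and 1.89%. It was 5.19% without Flag-IP replicate 1 and 9.21% without Flag-IP replicate 3. The sign of the fold change of the 13 genes and of NOP10 was the same in all 18 alternatives that were run. Scaling each library to the same total left 7 of the 13 past the threshold and a median fold change of 0.034 over the 56 genes. That scaling moved the median of all genes to -0.057 and the calls over all genes from 975 higher in the HA-IPs against 1196 higher in the Flag-IPs to 471 against 1576. Quantile normalization left 8 of the 13 and put the median of the 56 genes at 0.035, below the 0.044 of all genes. Limma without the trend of the variance on the mean called 0 of the 56 higher in the HA-IPs, with 14 of them at an unadjusted p under 0.05, whereas edgeR and DESeq2 on the recovered reads each called 13.

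**Figure D2:**
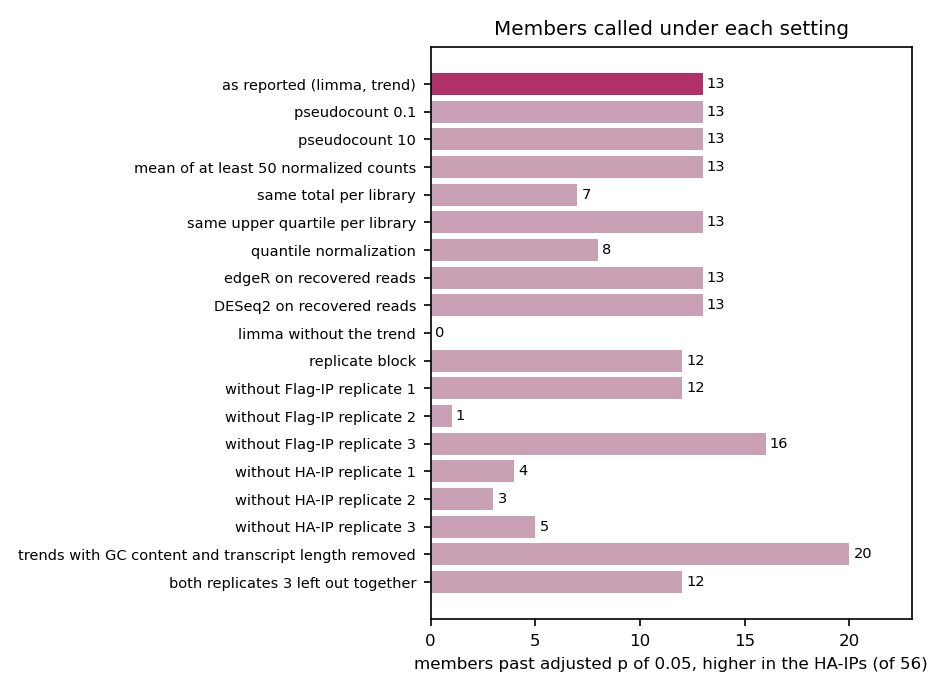
Number of the 56 ribosome biogenesis factors higher in the HA-IPs at an adjusted p of at most 0.05, as reported (dark bar) and under each of 18 alternatives (light bars). The count lies between 0 without the variance trend and 20 after removal of the GC and length trends, and is 1 without Flag-IP replicate 2.

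The E-box is the sequence bound by MYC, a textbook activator of nucleolar genes, so the promoters of the 56 genes were searched for it. RefSeq windows on GRCh38.p14, from 250 bases before to 50 bases after a transcript start, were on hand for 48 of the 56 genes in 55 windows. The 8 without one were NOP58, NOLC1, UTP23, NOL10, RRP12, BOP1, RRP1B and RRS1. The E-box CACGTG, which reads the same on both strands, was in the windows of 19 of 48 genes (39.6%). Of other genes of the pathway, which are not among the 56, 29 of 107 with a window had it (27.1%). So did 1461 of 11687 genes of the table with a window (12.5%) and 2396 of 27305 genes in all (8.77%). Among the 56, the E-box showed no split by call. It was in 5 of the 12 called genes with a window (41.7%) and in 14 of the 36 others (38.9%), so its presence did not separate the genes higher in the HA-IPs from the rest. The 5 called genes are shown first, followed by FBL and NOP10, which limma did not call higher in the HA-IPs but which carry the same hexamer. Each line gives 30 bases, 5′ to 3′ on the strand of the gene, with the E-box in capitals.

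UTP20: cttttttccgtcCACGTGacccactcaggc
NOL6: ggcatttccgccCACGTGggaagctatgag
LTV1: gtcctggggctgCACGTGtggtgaggccta
PES1: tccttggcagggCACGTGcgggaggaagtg
GNL2: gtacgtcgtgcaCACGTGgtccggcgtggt
FBL: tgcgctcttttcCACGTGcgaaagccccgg
NOP10: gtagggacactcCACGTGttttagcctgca

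These stretches lie at chr12:101280083-101280112 on the plus strand for UTP20, chr9:33473894-33473923 on the minus strand for NOL6, chr6:143843354-143843383 on the plus strand for LTV1, chr22:30591880-30591909 on the minus strand for PES1, chr1:37595917-37595946 on the minus strand for GNL2, chr19:39846356-39846385 on the minus strand for FBL and chr15:34343289-34343318 on the minus strand for NOP10. The hexamer printed began 10 bases before the RefSeq start in UTP20 and 170 bases before it in NOP10, whose window holds 2 of them, and after the start in the other 5. An ETS-type motif, CCGGAAGT on either strand, was in the windows of 11 of 48 genes (22.9%), of 4 of the 12 called genes (33.3%), of 7 of the 36 others (19.4%) and of 9.28% of the genes of the table with a window. It was also in 26 of the 107 other pathway genes with a window (24.3%). It is shown, in capitals and read from the other strand, for the called RNA polymerase I genes at chr2:112542411-112542440 on the plus strand and chr16:15094292-15094321 on the minus strand.

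POLR1B: ctgcggccactACTTCCGGcgtgtaccgag
RRN3: tggcacgcgcaACTTCCGGgacagaggctg

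Of the 3 other motifs searched on both strands, each a single exact string, that of NRF1 was in 3 genes (DKC1, UTP18 and NOB1), that of BANP in 3 (NOL11, NOP14 and NOL9) and that of YY1 in 1 (POLR1C), against 2.46%, 0.95% and 2.14% of the genes of the table with a window. None of these 7 genes was called. Of the 107 other pathway genes with a window, 4.67%, 0.935% and 6.54% held these 3 motifs in turn. No motif searched holds another within its letters, a gene can have more than 1 window, and a match describes letters and not binding.

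RNA polymerase I makes the precursor of the 18S, 5.8S and 28S ribosomal RNAs, and its 5 genes had positive fold changes, from 0.014 to 0.20 with a median of 0.13, of which that of UBTF turned negative with the same total per library (-0.039) and with quantile normalization (-0.054). RRN3, the initiation factor that makes the polymerase competent to start, had normalized counts of 4139, 3760 and 3980 in the Flag-IPs, always listed from replicate 1 to 3, against 4834, 4323 and 4521 in the HA-IPs. All HA-IPs lay above all Flag-IPs, and the fold change was 0.20 ± 0.057 (SE, n = 3 per group; limma adjusted p = 0.039). POLR1B, the second-largest subunit, had normalized counts of 4228, 4077 and 4343 in the Flag-IPs against 4853, 4783 and 4740 in the HA-IPs. The HA-IPs were again higher without overlap (0.19 ± 0.047, limma adjusted p = 0.025). The largest subunit POLR1A (fold change 0.13, limma adjusted p = 0.14) and POLR1C, a subunit shared with RNA polymerase III (0.12, 0.19), did not pass. UBTF, the HMG-box protein that marks active ribosomal DNA, had a fold change of 0.014 (limma adjusted p = 0.91), and its groups overlapped. The pseudogenes RRN3P1 and RRN3P3, which could share reads with RRN3, averaged 281 and 95.6 normalized counts in the Flag-IPs against 265 and 115 in the HA-IPs.

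The SSU processome is the large particle that folds and cuts the 18S part of the precursor, and it held 6 of the 13 genes called. Of its 20 genes, 16 had a positive fold change, 10 lay higher in the HA-IPs without overlap and 1 lay higher in the Flag-IPs without overlap. The median fold change was 0.11. For comparison, of the 9185 comparable protein-coding genes 5277 were positive, 2319 lay higher in the HA-IPs without overlap and 1414 higher in the Flag-IPs. UTP20 had normalized counts of 7609, 7834 and 9175 in the Flag-IPs against 9833, 10293 and 10045 in the HA-IPs. The HA-IPs were tight, Flag-IP replicate 3 stood between them and the other Flag-IPs, and the mean was 1.23-fold higher in the HA-IPs (log2 fold change 0.30 ± 0.066, limma adjusted p = 0.014).

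WDR3 and WDR36 are WD-repeat proteins of the UTPB module, which sits on the early precursor. WDR3 had normalized counts of 7444, 7662 and 8282 in the Flag-IPs against 9241, 9265 and 9821 in the HA-IPs (0.28 ± 0.053, limma adjusted p = 0.0073). WDR36 had 3956, 3908 and 4206 in the Flag-IPs against 4801, 4612 and 4938 in the HA-IPs (0.25 ± 0.051, limma adjusted p = 0.0097). In both genes the lowest HA-IP lay above the highest Flag-IP. UTP6 and UTP18, which belong to the same module, had fold changes of 0.13 and 0.018 and did not pass (limma adjusted p = 0.12 and 0.85).

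HEATR1 and WDR75 belong to the UTPA module, which binds the start of the precursor and is tied to RNA polymerase I transcription. WDR75 had normalized counts of 4209, 4082 and 4312 in the Flag-IPs against 5174, 4872 and 5172 in the HA-IPs (0.27 ± 0.049), and its limma adjusted p of 0.0055 was the smallest of the 56. HEATR1, a long HEAT-repeat protein, had 13852, 14072 and 15994 in the Flag-IPs against 17593, 17069 and 17807 in the HA-IPs (0.26 ± 0.058, limma adjusted p = 0.015). Both were higher in every HA-IP than in any Flag-IP. The other UTPA proteins among the 56, UTP4, UTP15, WDR43 and NOL11, had fold changes of -0.026, 0.11, 0.0018 and 0.11 and did not pass. The division into modules was made after the values were seen.

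NOL6, a UTPC protein, had normalized counts of 4838, 4894 and 5462 in the Flag-IPs against 5694, 5917 and 5702 in the HA-IPs (0.19 ± 0.055, limma adjusted p = 0.043). The HA-IPs were higher without overlap, but NOL6 kept its call in 1 of the 6 fits that left out a library, the one without Flag-IP replicate 3. RRP7A, another UTPC protein, had a fold change of -0.048 (limma adjusted p = 0.57). UTP23, which acts in the early cuts that set off the 18S part, was the most negative gene of the particle. It had normalized counts of 612, 540 and 484 in the Flag-IPs against 462, 449 and 471 in the HA-IPs, so that the Flag-IPs lay higher without overlap, but it did not pass (-0.24 ± 0.094, limma adjusted p = 0.13). Exons of UTP23 overlap those of genes on the opposite strand over 13.1% of their bases, RRP7A over 33.9%, HEATR1 over 23.1% and WDR3 over 17.1%, and it is not stated whether the counting used the strand. The partner of HEATR1, LGALS8, had means of 983 and 1045 normalized counts in the Flag-IPs and HA-IPs, and the partner of WDR3, SPAG17, is not among the listed genes. For UTP23 the partners are EIF3H, with a fold change of -0.36, and RAD21, with 0.14. The 6 remaining genes of the particle, UTP3, UTP14A, NOL10, NOP14, RRP9 and NOC4L, had fold changes from -0.026 to 0.17, and none passed.

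**Figure D3:**
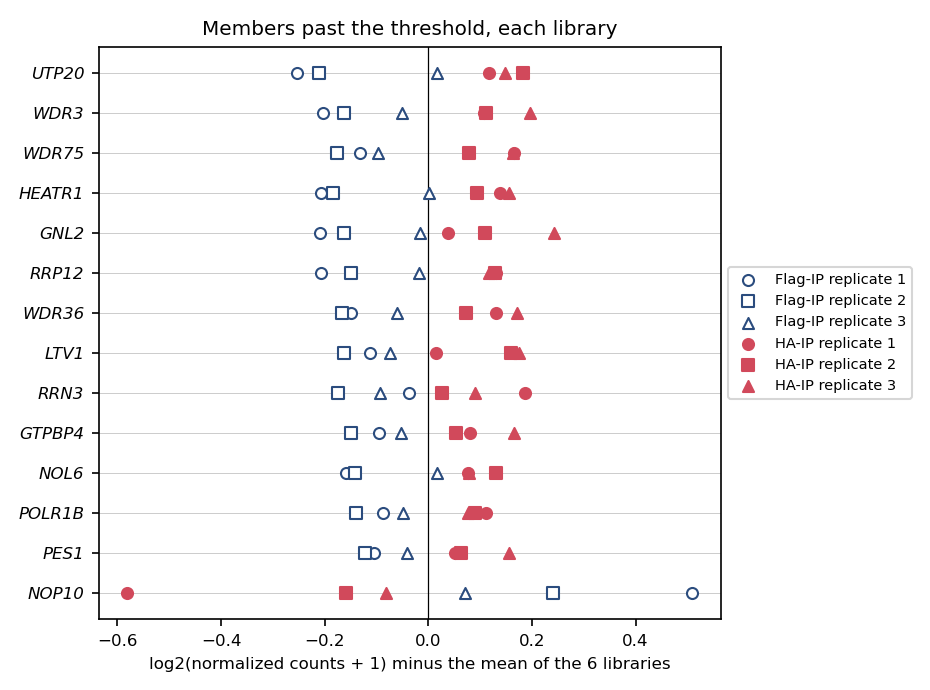
Log2(normalized counts + 1) of each library minus the mean of the 6 libraries, for the 14 genes past an adjusted p of 0.05, with open symbols for the Flag-IPs and filled symbols for the HA-IPs and 1 symbol shape per replicate number. Flag-IP replicate 3 is the highest Flag-IP in 12 of the 13 genes that were higher in the HA-IPs, and NOP10 shows the opposite order of the groups.

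Of the 5 late 40S factors, which act on the small subunit precursor on its way to the cytoplasm, 4 had positive fold changes and all 4 of these lay higher in the HA-IPs without overlap. The comparable protein-coding genes did so in 2319 of 9185 cases, and 5277 of them were positive. RRP12, a HEAT-repeat protein needed for export, had normalized counts of 8626, 8980 and 9833 in the Flag-IPs against 10899, 10894 and 10800 in the HA-IPs. The HA-IPs were nearly equal and all above the Flag-IPs (0.25 ± 0.053, limma adjusted p = 0.012). LTV1, an assembly factor released before the final maturation, had 1666, 1609 and 1712 in the Flag-IPs against 1819, 2013 and 2034 in the HA-IPs (0.23 ± 0.060, limma adjusted p = 0.028), with HA-IP replicate 1 closest to the Flag-IPs. BYSL and TSR1 had fold changes of 0.13 and 0.10 and did not pass (limma adjusted p = 0.14 and 0.16). NOB1, the endonuclease that makes the 3′ end of 18S rRNA, had normalized counts of 2461, 2336 and 2325 in the Flag-IPs against 2277, 2170 and 2280 in the HA-IPs. Its Flag-IPs lay higher without overlap, and it did not pass (-0.082, limma adjusted p = 0.35). Exons of NOB1 overlap those of NQO1-DT on the opposite strand over 20.4% of their bases.

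Of the 16 genes for 60S assembly, 12 had positive fold changes, 7 lay higher in the HA-IPs without overlap and 3 passed the threshold. Over the 9185 comparable protein-coding genes, 5277 were positive, 2319 lay higher in the HA-IPs without overlap and 940 passed as higher in the HA-IPs. GNL2, a nucleolar GTPase of the late nucleolar 60S precursor, had normalized counts of 5339, 5517 and 6103 in the Flag-IPs against 6335, 6663 and 7301 in the HA-IPs (0.26 ± 0.065, limma adjusted p = 0.025). GTPBP4, another GTPase of the same particles, had 5913, 5694 and 6089 in the Flag-IPs against 6675, 6554 and 7079 in the HA-IPs (0.20 ± 0.050, limma adjusted p = 0.024). In both, replicate 3 was the highest library of each group and the groups did not overlap. Exons of GTPBP4 overlap those of IDI2 on the opposite strand over 15.1% of their bases, and IDI2 is not among the listed genes.

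PES1, BOP1 and WDR12 form the PeBoW complex, which is needed for processing of the 28S part of the precursor. PES1 had normalized counts of 8504, 8407 and 8885 in the Flag-IPs against 9475, 9554 and 10195 in the HA-IPs, higher without overlap (0.18 ± 0.049, limma adjusted p = 0.033). WDR12 had a similar fold change of 0.16 and did not pass (limma adjusted p = 0.074), and BOP1 had -0.00030 with overlapping groups (limma adjusted p = 0.998). The most negative 60S genes were NOP16 (-0.16, limma adjusted p = 0.21) and EBNA1BP2 (-0.097, 0.28), both of the early nucleolar 60S precursors, and after removal of the GC and length trends they were 0.020 and 0.022. NOP16 had normalized counts of 774, 769 and 774 in the Flag-IPs against 630, 757 and 689 in the HA-IPs, without overlap and with the spread nearly all in the HA-IPs. Exons of NOP16 overlap those of ARL10 and HIGD2A on the opposite strand over 18.6% of their bases. Mean normalized counts in the Flag-IPs and HA-IPs were 469 and 411 for ARL10 (-0.19) and 630 and 536 for HIGD2A (-0.22). Exons of EBNA1BP2 overlap those of CFAP57 over 13.7%. The part of these overlaps in the values was not tested. The other 9 genes of this role, NOP2, NOC3L, RRS1, NOL9, NOC2L, GNL3, RRP1, RRP8 and RRP1B, had fold changes from -0.0043 to 0.16, and none passed.

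Of the 7 proteins that carry the guide RNAs for ribosomal RNA modification, limma called 0 higher in the HA-IPs (0 positive ones at an unadjusted p under 0.05), and the difference from the other roles was not tested. The box C/D proteins direct methylation of ribosomal RNA, and their fold changes were 0.034 for the methyltransferase FBL, 0.022 for NOP58 and -0.0015 for NOP56 (limma adjusted p = 0.75, 0.84 and 0.99), and FBL turned to -0.019 with the same total per library and to -0.062 with quantile normalization. After removal of the GC and length trends the fold change of FBL was 0.20 and passed (limma adjusted p = 0.010). FBL had normalized counts of 14344, 13646 and 14386 in the Flag-IPs against 13569, 14424 and 15446 in the HA-IPs, and the groups overlapped. The box H/ACA proteins direct pseudouridylation and are also part of telomerase. Of these 4, the pseudouridine synthase DKC1 (0.066), GAR1 (0.00059) and NHP2 (-0.14) did not pass (limma adjusted p = 0.42, 0.998 and 0.44), and NHP2 was high in a single library, Flag-IP replicate 1, at 2356 normalized counts against 1671 to 1783 in the other 5.

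NOP10, the smallest protein of the box H/ACA core, was the only one of the 56 higher in the Flag-IPs at a limma adjusted p of at most 0.05. It had normalized counts of 481, 399 and 354 in the Flag-IPs against 225, 302 and 319 in the HA-IPs, with a ratio of the means of 0.686. The groups did not overlap, but Flag-IP replicate 3 and HA-IP replicate 3 lay close together (-0.55 ± 0.15, limma adjusted p = 0.032). The call held without Flag-IP replicate 3 (adjusted p = 0.012 in limma) and without HA-IP replicate 3 (0.038) and was lost without Flag-IP replicate 1 (0.055), Flag-IP replicate 2 (0.10), HA-IP replicate 1 (0.13) or HA-IP replicate 2 (0.072). NOP10 has the shortest canonical transcript of the 56, 507 nt in GENCODE, and after removal of the trends with GC and length its fold change was -0.29 and did not pass (limma adjusted p = 0.11).

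The nucleolar scaffold proteins hold the granular and fibrillar layers of the nucleolus together. Their fold changes were 0.11 for NCL, 0.025 for NPM1 and -0.049 for NOLC1 (limma adjusted p = 0.32, 0.86 and 0.59), and NCL turned to -0.016 with quantile normalization. NPM1 and NCL were the most abundant of the 56 genes per length, with means of 22574 and 15861 normalized counts per kb of canonical transcript, followed by FBL with 12713, while UTP23 with 137 and RRP8 with 95.3 were the lowest. Their replicates spread more than the group difference, since NPM1 ranged from 28319 to 31487 normalized counts in the Flag-IPs and from 27336 to 33249 in the HA-IPs. Reads of NPM1 could be split with its 6 listed pseudogenes, which summed to at most 1.98% of NPM1 in a library.

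The libraries of a group differed among themselves over the same genes. For the 13 called genes, the median deviation from the mean over the 6 libraries was -0.15, -0.16 and -0.049 on the log2 scale for Flag-IP replicates 1 to 3. For HA-IP replicates 1 to 3 it was 0.11, 0.095 and 0.16. The 13 were called from these same libraries, so the opposite signs of the groups follow from the choice of genes. Over all 56 genes, taken with no threshold, the Flag-IP medians were -0.066, -0.069 and -0.018 in the same order. The HA-IP medians were 0.012, 0.033 and 0.083. Flag-IP replicate 3 was the highest Flag-IP for 12 of the 13 called genes and for 35 of the 56 (62.5%), against 40.4% of the comparable protein-coding genes. The heart muscle markers summed lowest in that Flag-IP and highest, among the HA-IPs, in replicate 3. With both replicates 3 left out, a choice made after the data were seen, 12 of the 56 were higher in the HA-IPs and 11 of these were among the 13.

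Longer transcripts had higher fold changes among the 56. Pearson's r between the fold change and log2 of the canonical transcript length was 0.55 over the 56 genes (Spearman's rho 0.43), 0.45 without NOP10 (0.40), and 0.23 over the 9185 comparable protein-coding genes (0.29). These are descriptions across genes that share the same 6 libraries, and genes are not independent replicates. Of the 18 genes over 4000 nt, 8 were higher in the HA-IPs (44.4%), where 13.2% of the comparable genes in that class were. Among the 20 of 2000 to 4000 nt it was 4 (20%, against 9.92%), and among the 18 under 2000 nt it was 1, LTV1 (5.56%, against 3.3%). The median canonical transcript of the 13 called genes was 4656 nt long, and that of the 42 not called in either direction was 2578.5 nt.

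The share called also differed between classes of base composition, but not in a single direction. Pearson's r between the fold change and GC content was -0.21 over the 56 genes (Spearman's rho -0.32) and -0.032 over the 9185 comparable protein-coding genes (-0.074). Of the 21 genes with a GC content under 45%, 9 were higher in the HA-IPs (42.9%, against 13.9% of comparable genes), while 1 of the 21 with 45% to 55% (4.76%, against 10.6%) and 3 of the 14 over 55% (21.4%, against 4.82%) were. When the trends of each library with GC content and length over all annotated genes were removed, 20 of the 56 were higher in the HA-IPs, including all 13, and the median fold change was 0.11. In that fit 1359 of 16683 genes were higher in the HA-IPs (8.15%), and the median of all genes was 0.014. The further 7 were POLR1C, FBL, RRP9, BYSL, NOP2, RRS1 and NOC3L.

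**Figure D4:**
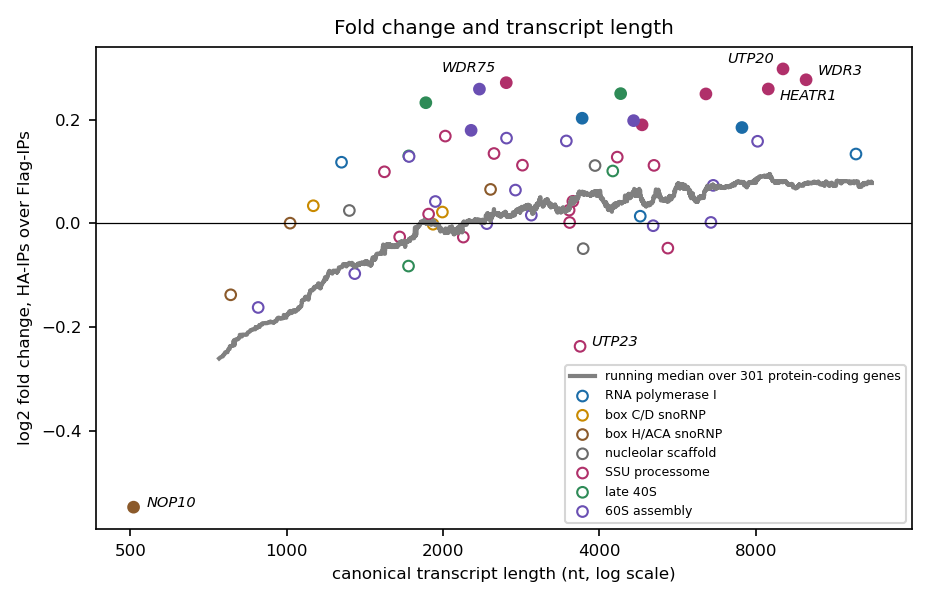
Log2 fold change (HA-IPs minus Flag-IPs) against the length of the canonical transcript (log scale) for the 56 ribosome biogenesis factors, coloured by role and filled at an adjusted p of at most 0.05, with a running median of the 9185 comparable protein-coding genes as a grey line. The genes called at over 4000 nt lie above the grey line, and NOP10, the shortest at 507 nt, lies at -0.55.

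Further genes of the pathway, which are not among the 56, were looked at in the same comparison, and 127 of them were listed. The HA-IPs were higher for 17 of these (13.4%, against 10.2% of the comparable protein-coding genes), the Flag-IPs for 5, with a median fold change of 0.036, which became -0.017 with the same total per library, and 79 positive. By role, the genes higher in the HA-IPs were 8 of 53 for 60S assembly, 4 of 17 pre-rRNA nucleases and their cofactors, 3 of 27 for the SSU processome, 1 of 10 for late 40S, 1 of 9 for snoRNP assembly and 0 of 11 for RNA polymerase I (0 at an unadjusted p under 0.05 in limma). The smallest adjusted p in this direction belonged to DDX18, a 60S helicase, with normalized counts of 7534, 7342 and 7434 in the Flag-IPs against 9048, 8699 and 9223 in the HA-IPs (0.27, limma adjusted p = 0.0036), and to NAT10, the acetyltransferase of 18S rRNA, with 5135, 5263 and 5796 against 6663, 6683 and 6712 (0.31, 0.0044). Both rose by about as much as UTP20 and WDR3 and without overlap. The genes higher in the Flag-IPs were DDX49, EXOSC5, SURF2, WDR18 and EXOSC4, led by the helicase DDX49 (-0.28, limma adjusted p = 0.0091) and the exosome subunit EXOSC5 (-0.25, 0.015). Of the 127, the number higher in the HA-IPs was 3 without Flag-IP replicate 2, 5 without HA-IP replicate 1, and 7 without either HA-IP replicate 2 or 3, and the number higher in the Flag-IPs in the same 4 fits was 0, 1, 1 and 3. Over all 16834 genes those 4 fits called 0.612%, 1.34%, 1.59% and 1.89% higher in the HA-IPs. With the same total per library, 9 of the 127 were higher in the HA-IPs against 14 in the Flag-IPs.

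The ribosomal proteins are the cargo that the 56 factors assemble, and the genes called among them were higher in the Flag-IPs. Of 85 listed genes for cytosolic ribosomal proteins, limma called 0 higher in the HA-IPs (0 positive ones at an unadjusted p under 0.05) but 38 higher in the Flag-IPs (44.7%, against 7.1% of all genes), with a median fold change of -0.36. The libraries differed, with median deviations of the cytosolic genes of 0.42, 0.078 and 0.059 in the Flag-IPs against -0.38, -0.15 and -0.018 in the HA-IPs, so that replicate 1 stood apart in each group and the replicates 3 were close. Of 78 genes for mitochondrial ribosomal proteins, limma called 0 higher in the HA-IPs (0 positive ones at an unadjusted p under 0.05) but 9 higher in the Flag-IPs (11.5%, against the same 7.1%), with a median of -0.12. These shares were not matched for transcript length. Among the 1698 comparable protein-coding genes under 2000 nt, 17.4% were higher in the Flag-IPs, with a median fold change of -0.082. The difference between the ribosomal protein lists and the 56 factors was not tested. NOP10, NHP2 and NOP16, whose canonical transcripts are the 3 shortest of the 56, also had negative fold changes, though NOP16 turned to 0.020 after removal of the GC and length trends.

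**Figure D5:**
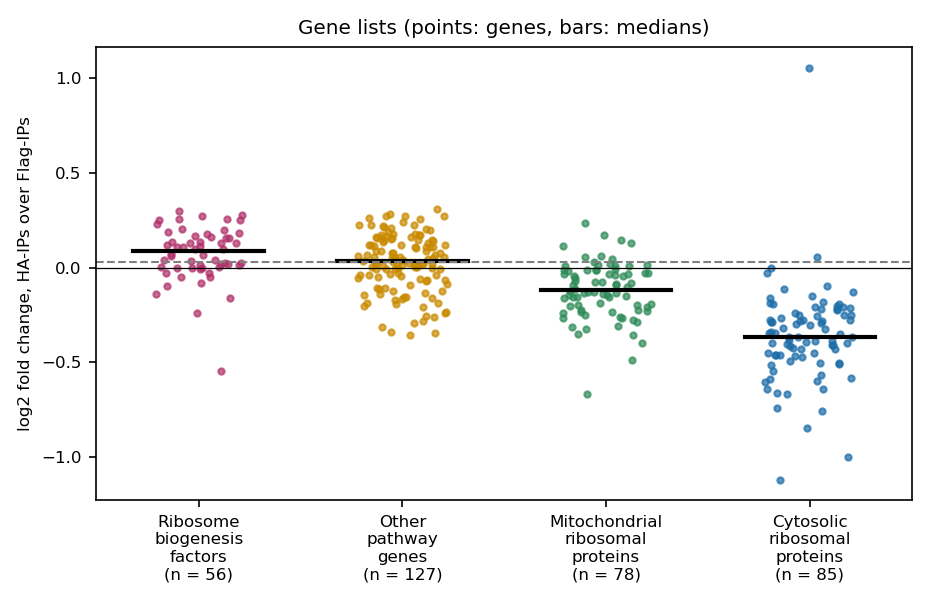
Log2 fold change (HA-IPs minus Flag-IPs) for the 56 ribosome biogenesis factors, 127 other genes of the pathway, 78 mitochondrial and 85 cytosolic ribosomal protein genes, with 1 point per gene, thick bars at the medians and a dashed line at the median of the 9185 comparable protein-coding genes. The medians are 0.087, 0.036, -0.12 and -0.36 from left to right.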

How the data were processed

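The authors used Trimmomatic 0.36 for trimming, STAR 2.5.2b for mapping to GRCh38 and, per the labels, featureCounts (Subread 1.5.2) for counting. They left out genes with few reads and deposited, for each library, a normalized signal, the read count divided by a DESeq2 size factor. The deposited table also holds the log2 fold change and the adjusted p-value of the authors' own comparison, which were not used. All values were within 0.001 of whole reads (largest deviation 6.8e-05), so reads were recovered. The smallest third-highest read number of any gene was 10.

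HA-IPs and Flag-IPs were compared in R 4.3.3 with limma 3.58.1, fitted to log2(normalized counts + 1) under a variance trend, two-sided, with Benjamini-Hochberg adjustment over all 16834 genes. With 3 against 3, the smallest exact permutation p is 0.1. Alternatives were pseudocounts of 0.1 and 10, a mean of at least 50, the same total or upper quartile, quantile normalization, edgeR 4.0.16 and DESeq2 1.42.0 on recovered reads, no trend, a replicate block, each library left out, and GC and length trends removed (splines of 5 degrees of freedom, MASS 7.3.60.0.1). Lengths and GC came from GENCODE canonical transcripts, found for 16683 genes (99.1%). The statistics were tested on simulated data. Figures used matplotlib 3.10.9 in Python 3.11.15. The members and lists were chosen with earlier results of these data known. Named are all called members, the 2 highest and 2 lowest fold changes per role (1 and 1 in roles of 5 or fewer), and the 2 smallest adjusted p in each direction among other pathway genes. Other named genes were given as the rest of a role or chosen after their values were seen. Replicates of a group differed by more than sampling noise. How far counting noise limited the precision for the less abundant of the 56 genes was not tested.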

Additional observations from a re-analysis of the deposited data

How the results depend on the processing

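With 13 members higher in the HA-IPs, 1 higher in the Flag-IPs, and 17 and 5 of the other pathway genes, the same total per library gave 7, 1, 9 and 14, with medians of 0.034 for the members and -0.017 for the other genes. Quantile normalization gave 8 members higher in the HA-IPs and a median of 0.035, below the 0.044 of all genes. NOP10 then missed the threshold, and 1 other member was higher in the Flag-IPs. Limma without the trend gave 0 in each list, and 6 and 182 over all genes against 975 and 1196. With GC content and length trends removed, 20 members and 31 other genes were higher in the HA-IPs, 0 members were higher in the Flag-IPs, and the median of the other genes was 0.058. Leaving out each library in turn gave 1 to 16 and 0 to 2 members, 3 to 25 and 0 to 7 other genes, and 103 to 1550 and 517 to 1509 of all genes. Deviations of same-numbered libraries had r of -0.16, 0.031 and -0.31. With 3 libraries per group, these values cannot tell whether same-numbered libraries shared a culture. The replicate block gave 12, 0, 14 and 2, losing NOL6 and NOP10, with 752 and 910 over all genes. Pseudocounts, the filter on low means, the upper quartile, edgeR and DESeq2 kept all 13 members. The cause of these changes was not tested.

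Signs were followed gene by gene only for the called members and the other genes named by rule, and of these the following changed sign. Members outside that rule changed sign too and are not listed. In all, 43 members were positive as reported, against 31 with the same total per library and 33 with quantile normalization. UBTF was -0.039 with the same total, -0.054 with quantile normalization, -0.0046 with GC content and length trends removed, and -0.041 to 0.073 with 1 library left out, negative without Flag-IP replicate 1 and, at -0.0024, without HA-IP replicate 2. NOP56 was 0.0014 with the same upper quartile, 0.038 with trends removed, and -0.033 to 0.023 with 1 library left out, positive without Flag-IP replicate 2 (0.0057) or 3 (0.012) or HA-IP replicate 1 or 2 (0.0050). FBL was -0.019 with the same total, -0.062 with quantile normalization, -0.013 to 0.080 with 1 library left out, negative without HA-IP replicate 3, and -3.0e-05 without both replicates 3, a setting chosen after seeing the data. NCL was -0.016 with quantile normalization. NOP16, at -0.16 as reported, was 0.020 and EBNA1BP2 0.022 with trends removed.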
